A study of Mus musculus with 4 samples.

Results

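The genes described here are 10 that neutrophils express: S100a8, S100a9, Csf3r, Cxcr2, Retnlg, Trem1, Mmp8, Mmp9, Lcn2 and Clec4d. They are 10 of 35275 genes in the deposited table and were listed because S100a8, S100a9 and Csf3r were higher in the knockout. Their differences between genotypes are therefore given as a description, with no test. RNA came from lung tumours of Balb/c mice that were either Nrf2 -/- (Nrf2 KO) or Nrf2 +/+ (WT), with 2 libraries per genotype. All mice had been given vinyl carbamate, a lung carcinogen, at 16 mg/kg in 2 or 4 doses, and each RNA sample pooled 3 to 4 tumours taken 40 to 44 weeks after initiation. Which sample received which number of doses, and the age and sex of the mice, are not stated in the labels. The knockout is in every cell of the animal, so that tumour, stroma and blood cells all lack Nrf2, and no tumour-free lung is among the samples.

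Neutrophils are short-lived white blood cells that are made in the bone marrow under granulocyte colony-stimulating factor and leave the blood along gradients of CXC chemokines. S100A8 and S100A9 pair to form calprotectin, a protein that binds calcium, zinc and manganese, fills the neutrophil cytoplasm and, once released, signals through TLR4 and the receptor RAGE. Granule proteins are made in steps: those of primary granules are transcribed in early marrow precursors, those of secondary granules in later precursors, and gelatinase, surface receptors and calprotectin in cells closer to release. Several of these genes are not restricted to neutrophils, since monocytes also make calprotectin and lung epithelium also makes lipocalin 2.

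Libraries held 17975646 and 16892588 reads for Nrf2 KO 1 and 2, against 21659572 and 21220307 for WT 1 and 2, as recovered from the steps in the values. Nfe2l2, which encodes NRF2, was at 3.66 and 2.96 FPKM (reads scaled to gene length and to the library's total) in the Nrf2 KO libraries, against 96.3 and 87.9 FPKM in the WT libraries. Its log2 fold change was -4.44 (limma adjusted p = 0.000378). Markers of lung type 2 epithelium were present as the tissue label implies, and the 10 listed summed to 120707 and 105534 FPKM in the Nrf2 KO libraries and 109069 and 109647 FPKM in the WT libraries. Most of that sum was Sftpc, at 90473.5 and 76027.2 FPKM in Nrf2 KO and 75159.1 and 77717.6 in WT. Both knockout libraries lay above both WT libraries in 1 of the 10, Napsa, and below in 4, beside 22.7% and 25.4% of all genes tested.

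The sequences shown are the 250 bases before the RefSeq start (GRCm38.p6, the assembly of mm10) of S100a8, S100a9 and Csf3r, whose levels moved together, and of Lcn2, which followed another course. Each runs 5′ to 3′ on the gene's own strand. The coordinates of whole genes given below are from GENCODE M21, whose outermost starts differ from the RefSeq starts in S100a8, Csf3r and Lcn2. The stretches of S100a8 and Csf3r end inside the GENCODE gene, and that of Lcn2 lies wholly inside it. Distances of motifs thus hold for the RefSeq start only. Capitals mark matches, on either strand, to TTGCNNAA (a C/EBP motif), GAGGAA (the PU.1 core), GGGNNNNNCC (an NF-kB motif) and TATAAA. 
S100a8, chr3:90668821-90669070, plus strand: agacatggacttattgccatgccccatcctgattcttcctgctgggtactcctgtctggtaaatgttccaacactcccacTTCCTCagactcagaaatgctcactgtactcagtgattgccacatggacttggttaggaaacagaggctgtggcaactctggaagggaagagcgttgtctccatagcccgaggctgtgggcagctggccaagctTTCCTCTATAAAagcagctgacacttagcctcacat
S100a9, chr3:90695722-90695971, minus strand: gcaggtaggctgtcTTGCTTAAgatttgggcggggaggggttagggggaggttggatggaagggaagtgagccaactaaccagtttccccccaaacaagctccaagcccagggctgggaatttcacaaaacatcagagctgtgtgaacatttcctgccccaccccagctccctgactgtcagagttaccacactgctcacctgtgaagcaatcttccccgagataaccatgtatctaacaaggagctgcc
Csf3r, chr4:126024409-126024658, plus strand: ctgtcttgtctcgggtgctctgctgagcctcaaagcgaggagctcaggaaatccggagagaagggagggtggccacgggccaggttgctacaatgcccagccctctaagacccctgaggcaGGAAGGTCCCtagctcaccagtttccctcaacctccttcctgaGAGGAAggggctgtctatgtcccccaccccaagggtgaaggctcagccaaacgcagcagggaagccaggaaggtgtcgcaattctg
Lcn2, chr2:32387740-32387989, minus strand: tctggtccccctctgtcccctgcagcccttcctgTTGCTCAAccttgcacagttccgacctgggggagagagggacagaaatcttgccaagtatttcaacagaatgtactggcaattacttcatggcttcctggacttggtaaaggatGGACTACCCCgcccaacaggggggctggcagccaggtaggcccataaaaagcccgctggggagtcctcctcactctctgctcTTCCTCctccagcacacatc
S100a8 had TATAAA 30 bases before its start, with TTCCTC, the reverse complement of GAGGAA, directly before it and again at 170 bases. S100a9 had TTGCTTAA 236 bases before its start and no GAGGAA, and its TATAAA lay just past these bases, at the annotated start itself. Csf3r had GAGGAA 86 bases and GGAAGGTCCC 129 bases before its start and no TTGCNNAA. Lcn2 had TTGCTCAA at 216 bases, GGACTACCCC at 102 bases and TTCCTC at 20 bases before its start.

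Promoter windows of 300 bases, from 250 before to 50 after the start, were found for 9 of the 10 genes. GAGGAA was in 7 of the 9 windows (all but S100a9 and Retnlg) and in 28.3% of 27025 windows of the same length. TTGCNNAA was in 4 of the 9 (S100a9, Lcn2, Mmp8 and Retnlg) and in 10.7% of all windows. TATAAA was in 3 of the 9 and in 14.2% of all, and GGGNNNNNCC was in 3 of the 9 and in 50.4%. TGACNNNGC, the core of the antioxidant response element to which NRF2 binds, was in 0 of the 9 windows and in 12.5% of all. TGANTCA, an AP-1 motif, was likewise in 0 of the 9 and in 7.93% of all, and TTCNNNGAA, a STAT motif, was in Trem1 alone and in 8.47% of all. TTNNNNAA, a looser form of the C/EBP motif that overlaps the stricter one, was in 8 of the 9 and in 61.7% of all. A match is a description of letters and does not show that a factor bound there.

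The 10 genes did not follow 1 course. S100a8, S100a9, Csf3r and Mmp9 were 2.55 to 4.39 times as high in Nrf2 KO tumours, with close values in both knockout libraries. Cxcr2 and Retnlg were higher too, but mostly in Nrf2 KO 2. Trem1 and Mmp8 overlapped between the genotypes, Clec4d was 1.41 times as high at a low level, and Lcn2 was 1.62 times as high at a level far above that of the others. In 8 of the 10 genes both Nrf2 KO libraries lay above both WT libraries, as they did for 22.7% of the 13147 tested genes, and in 0 they lay below, as for 25.4% of tested genes. The genes were chosen on this contrast, so nothing is read from that count. The median log2 fold change, on the log2(FPKM + 1) scale, was 1.12 over the 10 genes and -0.004 over all tested genes. All 10 passed the filter of at least 1 FPKM in 2 or more libraries, and 9 of them also had at least 1 FPKM in both WT libraries; Cxcr2 did not.

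**Figure D1:**
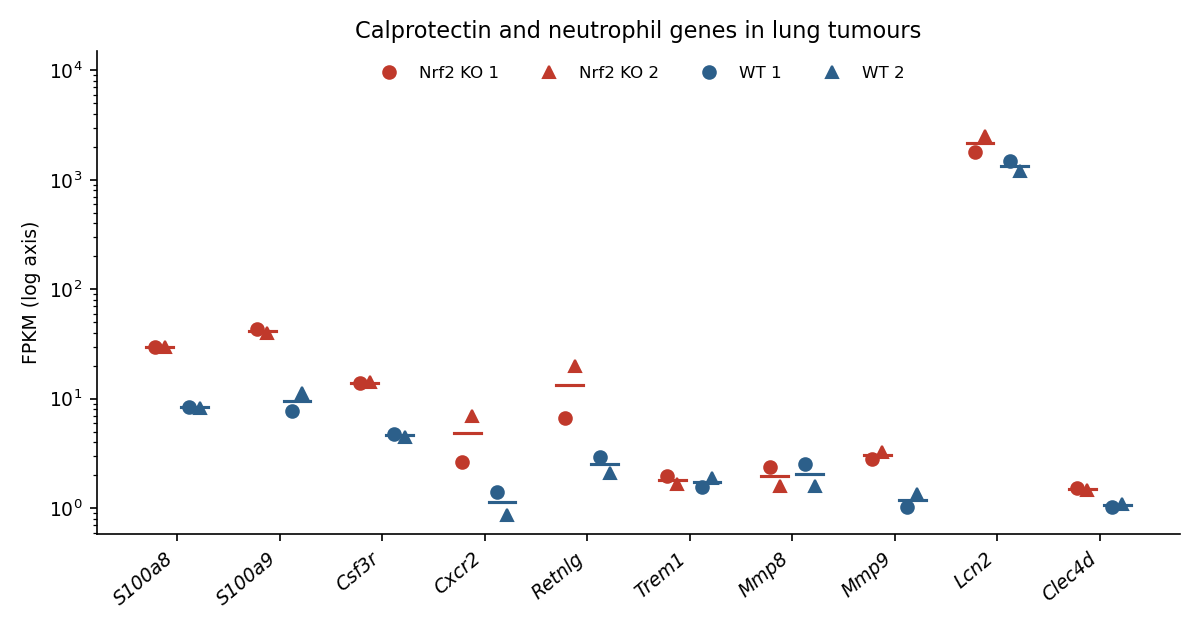
FPKM of the 10 genes on a log axis, with the Nrf2 KO libraries (red) left of the WT libraries (blue), circles for replicate 1, triangles for replicate 2 and a bar at each mean. S100a8, S100a9 and Csf3r separate by genotype with close replicates, Cxcr2 and Retnlg are spread in the knockout, Trem1 and Mmp8 overlap, and Lcn2 lies above 1200 FPKM in every library.

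S100a8 (chromosome 3, 90668978 to 90670035, plus strand) was at 29.5 and 29.4 FPKM in Nrf2 KO 1 and 2, against 8.36 and 8.29 FPKM in WT 1 and 2. The 2 libraries of each genotype were almost equal and the genotypes were 3.54-fold apart, a log2 fold change of 1.71 ± 0.10 (SE). S100a9 (chromosome 3, 90692632 to 90695721, minus strand) was at 43.6 and 40.3 FPKM in the Nrf2 KO libraries, against 7.78 and 11.3 FPKM in the WT libraries. Its means were 4.39-fold apart, with WT 2 the higher of the WT libraries, and its log2 fold change was 2.04 ± 0.18 (SE). S100a8 rested on at least 208 and 195 reads in Nrf2 KO and 71 and 69 in WT, and S100a9 on at least 404 and 351 in Nrf2 KO and 87 and 124 in WT. These are the smallest whole reads that fit the values, and the true numbers could be a multiple of them.

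The ratio of the subunits was lower in WT 1 than in the other libraries. S100a9 stood at 1.48 and 1.37 times the FPKM of S100a8 in Nrf2 KO 1 and 2, and at 0.931 and 1.37 times in WT 1 and 2. WT 1 was thus the library in which S100a9 was below S100a8. That ratio rested on at least 87 reads of S100a9 and 71 of S100a8, and the part of counting error in it was not tested. The pair summed to 73.1 and 69.7 FPKM in Nrf2 KO and to 16.1 and 19.6 FPKM in WT. That was 69.6% and 58.7% of the summed FPKM of the 10 genes without Lcn2 in Nrf2 KO 1 and 2, and 51.4% and 59.5% in WT 1 and 2.

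S100a8 and S100a9 end a row of 12 S100a genes on chromosome 3, 22596 bases apart, on opposite strands that run towards each other and with 0 annotated genes between them. Of 14 other S100 genes listed, 9 were tested, 0 were called by limma, and limma-voom on recovered reads called 0 as well. At an unadjusted p under 0.05, 3 were higher and 0 lower, beside 8.36% and 7.01% of all tested genes. S100a4, a calcium-binding protein of fibroblasts and leukocytes, was at 30.1 and 44.5 FPKM in Nrf2 KO against 12.5 and 10.9 in WT (log2 fold change 1.57, limma adjusted p = 0.0722). S100a10, a partner of annexin A2, was at 104 and 102 FPKM in Nrf2 KO and 63.0 and 77.4 in WT (limma adjusted p = 0.173). S100g, a calcium-binding protein, was at 66.8 and 63.0 FPKM in Nrf2 KO and 36.8 and 40.0 in WT (limma adjusted p = 0.0918). The genes S100a10 and S100g lie outside this row. S100a7a, the gene next to S100a8, was at 0.0751 FPKM or 0 in the Nrf2 KO libraries and at 0.187 and 0.127 FPKM in the WT libraries. S100a6, S100a13 and S100a1 had log2 fold changes of 0.30, 0.17 and 0.18, none of them called.

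**Figure D2:**
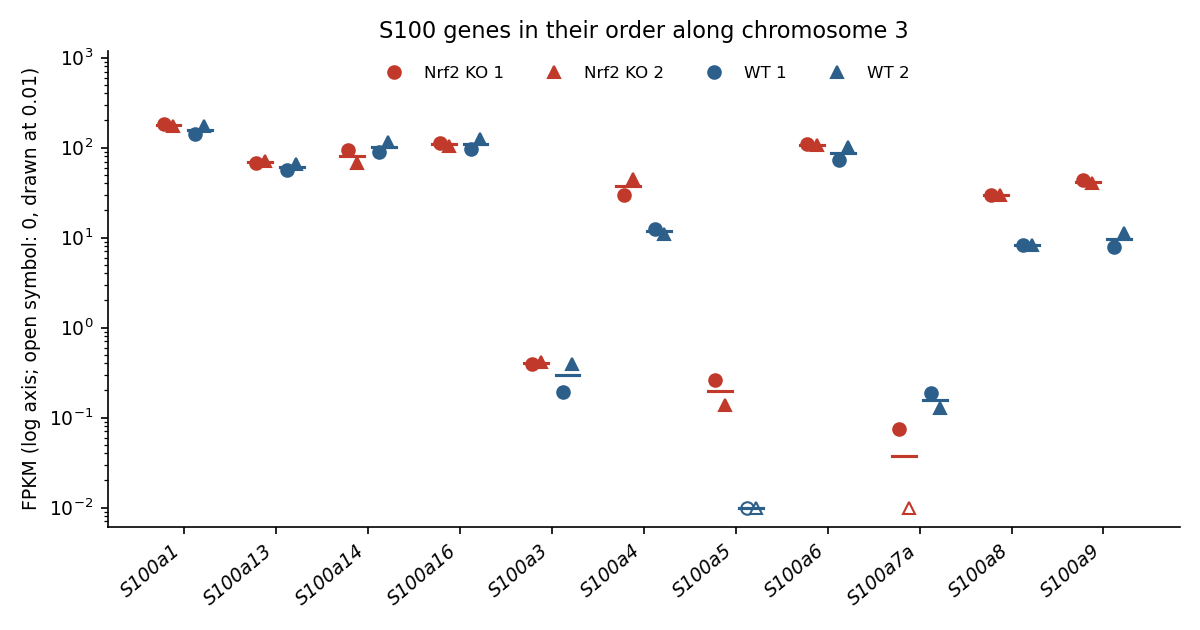
FPKM on a log axis of 11 S100a genes in their order along chromosome 3, with the Nrf2 KO libraries (red) left of the WT libraries (blue) and a bar at each mean; open symbols stand for 0. Of the genes above 1 FPKM, S100a8, S100a9 and S100a4 have the widest gaps between the genotypes, while S100a3, S100a5 and S100a7a lie under 1 FPKM in all libraries.

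The receptors to which calprotectin binds did not pass the test. Of 8 receptors and partners, all tested, limma and limma-voom called 0. At an unadjusted p under 0.05, 0 were higher and 0 lower, beside 8.36% and 7.01% of all tested genes. Tlr4 was at 34.7 and 38.5 FPKM in Nrf2 KO and 36.8 and 37.8 in WT, and its co-receptor Cd14 was at 143 and 162 FPKM in Nrf2 KO and 147 and 157 in WT. Ager, which encodes RAGE and is also abundant in type 1 alveolar cells, was at 739 and 750 FPKM in Nrf2 KO and 755 and 768 in WT. The log2 fold changes of these 3 genes lay between -0.03 and 0.00, and their standard errors between 0.11 and 0.14.

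The receptors among the 10 genes differed in how evenly the knockout libraries carried them. Csf3r, through which granulocyte colony-stimulating factor acts (chromosome 4, 126024550 to 126044440, plus strand), was at 13.8 and 14.1 FPKM in Nrf2 KO, against 4.74 and 4.50 FPKM in WT. The replicates were close in both genotypes, and the log2 fold change was 1.41 ± 0.12 (SE). Cxcr2, the receptor for CXCL1 and related chemokines (chromosome 1, 74153989 to 74161246, plus strand), was at 2.66 and 6.97 FPKM in Nrf2 KO 1 and 2, against 1.40 and 0.859 FPKM in WT 1 and 2. Both knockout libraries were higher, but the gap between them exceeded the gap from Nrf2 KO 1 to either WT library. Its log2 fold change was 1.35 ± 0.37 (SE), and 0.79 without Nrf2 KO 2. Retnlg, a secreted resistin-like protein of mouse neutrophils (chromosome 16, 48872621 to 48874496, plus strand), was at 6.68 and 20.1 FPKM in Nrf2 KO 1 and 2, against 2.96 and 2.09 FPKM in WT 1 and 2. It had the same unequal knockout libraries as Cxcr2, with a log2 fold change of 1.86 ± 0.45 (SE) that was 1.13 without Nrf2 KO 2.

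The genes were listed for the difference between genotypes in S100a8, S100a9 and Csf3r. A choice of that kind can favour genes with close replicates, so ratios near 1 in these 3 genes are not independent of it. Nrf2 KO 2 had 3.00 times the Retnlg reads of Nrf2 KO 1 per library total (95% exact binomial interval 2.29 to 3.98) and 2.62 times the Cxcr2 reads (2.12 to 3.25). In S100a8 that ratio was 0.998 (0.816 to 1.22), in S100a9 0.925 (0.799 to 1.07) and in Csf3r 1.02 (0.902 to 1.16). The intervals of Retnlg and Cxcr2 thus lay wholly above those of the other 3 genes, and they cover counting error only. Lcn2 at 1.40 (1.38 to 1.42) and Mmp8 at 0.669 (0.484 to 0.919) also had intervals without 1. So did WT 2 over WT 1 in S100a9 at 1.45 (1.10 to 1.94), Cxcr2 at 0.612 (0.419 to 0.887), Mmp8 at 0.628 (0.472 to 0.831) and Lcn2 at 0.821 (0.807 to 0.835). A ratio of Nrf2 KO 2 to Nrf2 KO 1 of at least 2 was seen in 1.63% of tested genes and in 2 of the 10 genes described here. Retnlg was at 0.226 and 0.681 times the FPKM of S100a8 in Nrf2 KO 1 and 2, and at 0.354 and 0.252 times in WT 1 and 2. Cxcr2 was at 0.193 and 0.494 times the FPKM of Csf3r in Nrf2 KO 1 and 2, and at 0.296 and 0.191 times in WT 1 and 2.

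**Figure D3:**
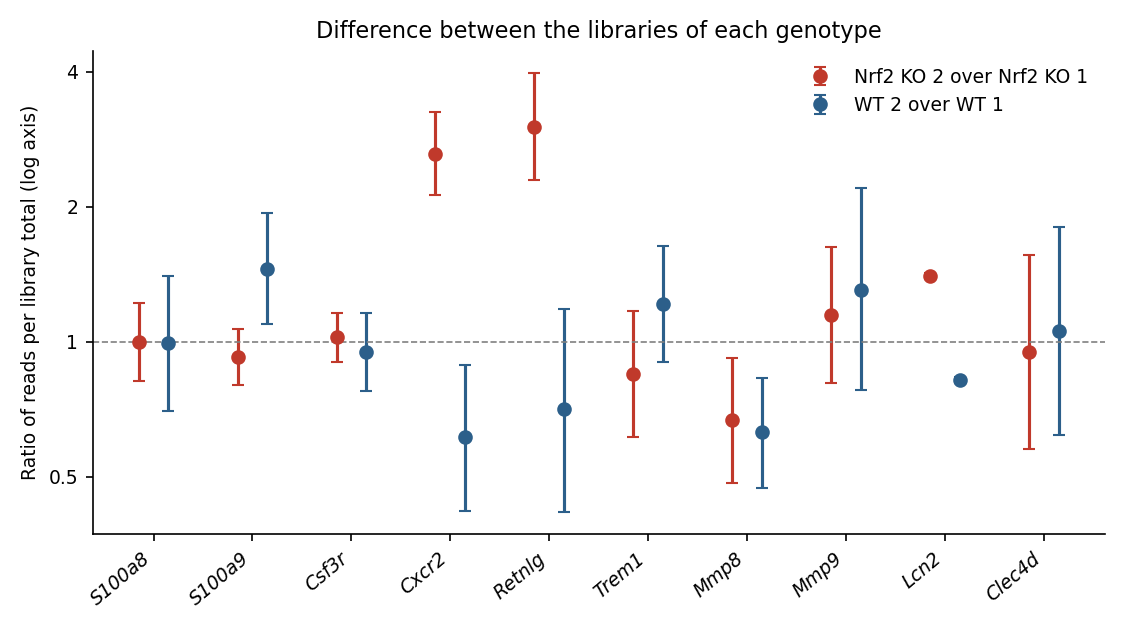
Ratio between the libraries of each genotype, in reads per library total on a log axis, for Nrf2 KO 2 over Nrf2 KO 1 (red) and WT 2 over WT 1 (blue), with 95% exact binomial intervals. In the knockout, Cxcr2 (2.62) and Retnlg (3.00) stand above the other 8 genes, and S100a8, S100a9 and Csf3r have intervals that include 1.

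Other neutrophil genes did not divide the knockout libraries in 1 direction. Of 30 listed genes with at least 10 reads over both Nrf2 KO libraries, 9 had an interval above 1 and 9 below 1, with a median ratio of 0.979. Ltf, which encodes the secondary granule protein lactoferrin and is also made by glandular epithelium, was 10.9 times as high in Nrf2 KO 2, at 0.771 and 8.42 FPKM in Nrf2 KO 1 and 2 and 0.421 and 0.155 FPKM in WT 1 and 2. Among receptors, Ptafr for platelet-activating factor had a ratio of 1.61, Ltb4r1 for leukotriene B4 of 1.73 and Il1r2, a decoy for interleukin 1, of 1.48. The formyl peptide receptors Fpr1 and Fpr2 had ratios of 0.664 and 0.570, and the complement receptor C5ar1 of 0.641. Chil3, a chitinase-like protein of macrophages and monocytes, was at 487 and 1029 FPKM in Nrf2 KO 1 and 2 and 526 and 436 FPKM in WT 1 and 2. The part of other cell types in these differences between replicates was not tested.

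The proteases among the 10 genes went separate ways. Mmp9, gelatinase B (chromosome 2, 164940780 to 164955850, plus strand), was at 2.84 and 3.25 FPKM in Nrf2 KO, against 1.03 and 1.35 FPKM in WT. Both knockout libraries were above both WT libraries, with a log2 fold change of 0.89 ± 0.16 (SE). Mmp8, the neutrophil collagenase (chromosome 9, 7558456 to 7568485, plus strand), was at 2.38 and 1.59 FPKM in Nrf2 KO, against 2.54 and 1.59 FPKM in WT. Its genotypes overlapped, replicate 1 was the higher in each, and the log2 fold change was -0.03 ± 0.22 (SE). Of 8 inhibitors and other proteases, 6 were tested, and limma and limma-voom called 0. At an unadjusted p under 0.05, 2 were higher and 0 lower, beside 8.36% and 7.01% of all tested genes. Mmp12, the macrophage elastase, was at 35.0 and 61.4 FPKM in Nrf2 KO and 13.9 and 13.2 in WT (limma adjusted p = 0.096). Timp1, an inhibitor that binds pro-MMP9, was at 4.99 and 10.7 FPKM in Nrf2 KO and 3.82 and 4.12 in WT (limma adjusted p = 0.318).

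Trem1, a receptor that amplifies inflammatory signals through the adaptor DAP12 (chromosome 17, 48232768 to 48246924, plus strand), was at 1.95 and 1.66 FPKM in Nrf2 KO, against 1.57 and 1.90 FPKM in WT. The 4 values interleaved, and the log2 fold change was 0.04 ± 0.16 (SE). Clec4d, a C-type lectin receptor that signals through the Fc receptor gamma chain (chromosome 6, 123262111 to 123275265, plus strand), was at 1.54 and 1.46 FPKM in Nrf2 KO, against 1.04 and 1.09 FPKM in WT. The groups did not overlap, but they rested on at least 37 and 33 reads in Nrf2 KO and 30 and 31 in WT, and the log2 fold change was 0.28 ± 0.16 (SE). Of 16 relatives and signalling partners, 12 were tested, and limma and limma-voom called 0. At an unadjusted p under 0.05, 3 were higher and 0 lower, beside 8.36% and 7.01% of all tested genes. Clec7a, which encodes the beta-glucan receptor dectin-1, was at 67.9 and 51.5 FPKM in Nrf2 KO and 37.5 and 33.0 in WT (limma adjusted p = 0.156). Tyrobp, which encodes DAP12, was at 151 and 112 FPKM in Nrf2 KO and 96.3 and 102 in WT, and Fcer1g, the gamma chain, at 47.5 and 41.9 FPKM in Nrf2 KO and 36.2 and 36.4 in WT (limma adjusted p = 0.327 and 0.295).

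Lcn2, which encodes lipocalin 2, a protein that withholds iron from bacteria by binding their siderophores (chromosome 2, 32384633 to 32388252, minus strand), was at 1804 and 2530 FPKM in Nrf2 KO, against 1471 and 1207 FPKM in WT. All 4 libraries were high, Nrf2 KO 2 highest and WT 2 lowest, and the log2 fold change was 0.68 ± 0.24 (SE). By FPKM it ranked 28 and 19 among all genes in Nrf2 KO 1 and 2, and 28 and 52 in WT 1 and 2. The other 9 genes lay between 1.46 and 43.6 FPKM in Nrf2 KO and between 0.859 and 11.3 FPKM in WT. The lipocalin receptor Slc22a17 was at 26.8 and 21.9 FPKM in Nrf2 KO and 23.0 and 27.4 in WT (limma adjusted p = 0.9). Of the 3 listed receptors and partners 2 were tested, and limma and limma-voom called 0. At an unadjusted p under 0.05, 0 were higher and 0 lower, beside 8.36% and 7.01% of all tested genes.

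The defining markers of neutrophils were then checked. Ly6g, the surface protein used to sort mouse neutrophils, was listed at 0 in both Nrf2 KO libraries and at 0.0723 and 0.147 FPKM in WT. None of the 6 primary granule genes reached 1 FPKM: Mpo, myeloperoxidase, was at 0.043 FPKM in Nrf2 KO 1 and at 0 in the other libraries, and Elane and Ctsg were at 0 in all 4. The 6 summed to 0.478 and 0.0855 FPKM in Nrf2 KO and to 0.133 and 0.0406 FPKM in WT. The secondary granule genes Camp and Ngp stayed under 0.5 FPKM in each library. Levels of 30 genes of mature neutrophils ranged widely: 9 were under 1 FPKM in every library, with Stfa1, Stfa2 and Stfa3 of the stefin A protease inhibitors at 0 throughout, and 8 were at 10 FPKM or more in every library. Itgb2, the beta 2 integrin chain that leukocytes share, was at 87.8 and 73.8 FPKM in Nrf2 KO and 85.4 and 80.4 in WT. Cxcr1, a chemokine receptor, was at 4.58 and 3.49 FPKM in Nrf2 KO and 1.51 and 1.76 in WT, and Il1r2 at 2.33 and 3.45 FPKM in Nrf2 KO and 0.587 and 0.670 in WT (limma adjusted p = 0.124 and 0.107). Asprv1, a protease gene expressed in neutrophils and skin, was at 1.46 and 1.36 FPKM in Nrf2 KO and 0.242 and 0.216 in WT (limma adjusted p = 0.12).

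Over the 46 listed granule, surface and cytoplasmic genes of neutrophils outside the 10, 27 were tested, and limma and limma-voom called 0. At an unadjusted p under 0.05, 10 were higher and 2 lower in Nrf2 KO, beside 8.36% and 7.01% of all tested genes. Both knockout libraries lay above both WT libraries in 14 of the 27 and below in 4, beside 22.7% and 25.4% of all tested genes. Of these genes, Il1r2, Asprv1 and the membrane-bound protease gene Mmp25 were under 1 FPKM in both WT libraries and passed the filter through the knockout libraries alone, so they could be counted only because they were higher there; they are 3 of the 10 and 3 of the 14. The median log2 fold change was 0.27 over the 27 and 0.13 over all 46. The 2 lower genes were Cd177, a neutrophil surface glycoprotein, and Padi4, the enzyme that citrullinates histones in extracellular traps. Cd177 was at 123 and 151 FPKM in Nrf2 KO and 303 and 245 in WT (log2 fold change -0.997, limma adjusted p = 0.111), a level well above that of calprotectin in every library. Padi4 was at 6.82 and 2.75 FPKM in Nrf2 KO and 8.46 and 17.7 in WT (log2 fold change -1.30, limma adjusted p = 0.259). Hdc, histidine decarboxylase, was at 331 and 323 FPKM in Nrf2 KO and 323 and 313 in WT, and the glycoprotein Lrg1 at 531 and 454 FPKM in Nrf2 KO and 469 and 474 in WT. Cd177, Hdc, Lrg1 and Lcn2 were thus at 123 FPKM or more in every library, where Ly6g was at or near 0.

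**Figure D4:**
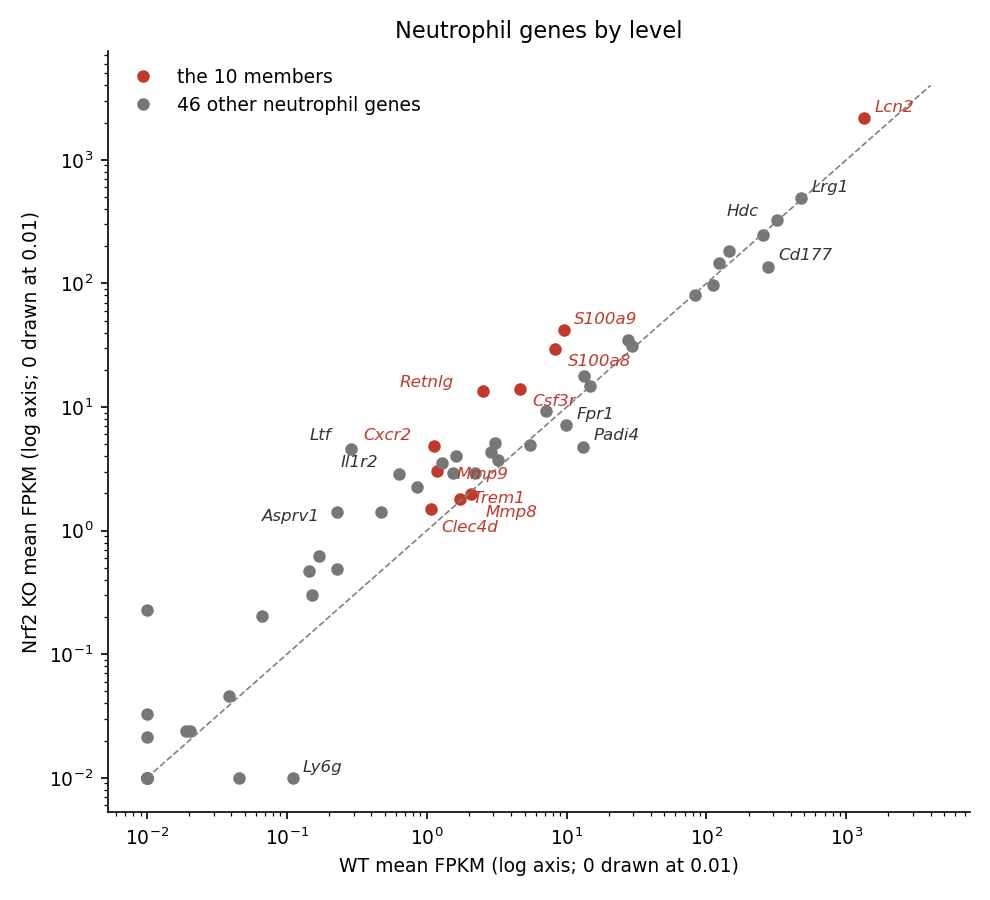
Mean FPKM in Nrf2 KO (vertical) against mean FPKM in WT (horizontal), both on log axes, for the 10 genes (red) and 46 other neutrophil genes (grey), with 0 drawn at 0.01 and a dashed line at equality. S100a8, S100a9, Csf3r, Cxcr2 and Retnlg lie above the line, Trem1 and Mmp8 on it, Cd177 and Padi4 below it, and Lcn2 at the upper end with Lrg1 and Hdc next below.

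Of the genes that recruit or instruct neutrophils, 1 passed the test. It was also the 1 called by limma among 83 tested genes in 12 lists of related genes, beside 0.114% of all tested genes (0.0761% higher and 0.038% lower). Of 12 listed ligands, 6 were tested, and both knockout libraries lay above both WT libraries in all 6, beside 22.7% of all tested genes. Il1b, interleukin 1 beta, passed the test at 21.4 and 19.2 FPKM in Nrf2 KO against 8.34 and 8.40 in WT (log2 fold change 1.18, limma adjusted p = 0.043). It was not called in 7 of 12 other settings, without WT 1 or WT 2 among them, where its adjusted p ran from 0.0212 to 0.258 over all 12. The CXCR2 ligands Cxcl1 and Cxcl3 were at 25.2 and 26.3 FPKM and at 8.33 and 18.0 FPKM in Nrf2 KO, against 11.2 and 13.2 FPKM and 3.98 and 3.78 FPKM in WT (limma adjusted p = 0.0696 and 0.16). Cxcl15, a chemokine of lung epithelium, had a log2 fold change of 0.27 that was -0.225 with quantile normalization. Csf3, the ligand of CSF3R, was under 0.04 FPKM in each library, and Il17a, a T cell cytokine that induces it, was at 0 in all but Nrf2 KO 2. Of 5 subunits of the phagocyte oxidase, all tested, limma and limma-voom called 0. At an unadjusted p under 0.05, 1 was higher and 0 lower, beside 8.36% and 7.01% of all tested genes. All 5 lay above both WT libraries in both knockout libraries, beside 22.7% of all tested genes. Cybb, the catalytic subunit, was counted with the granule genes and not among these 5, and its groups overlapped, at 117 and 78.1 FPKM in Nrf2 KO and 116 and 105 in WT (log2 fold change -0.20). Ncf4 was at 22.2 and 20.5 FPKM in Nrf2 KO and 14.2 and 14.3 in WT (limma adjusted p = 0.139). Of 10 transcription factors of granulocytes, 8 were tested, and limma and limma-voom called 0. At an unadjusted p under 0.05, 0 were higher and 1 lower, beside 8.36% and 7.01% of all tested genes. Cebpe, which drives secondary granule genes, stayed under 0.6 FPKM in each library. Spi1, which encodes PU.1 and is shared with macrophages, was at 69.4 and 60.8 FPKM in Nrf2 KO and 56.9 and 57.7 in WT.

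Markers of some other cells also lay higher in the knockout libraries. In bulk RNA, more cells of a type and more RNA per cell cannot be told apart. Limma called 0 of the 32 genes tested in 7 such lists, and limma-voom called 0; at an unadjusted p under 0.05, 19 were higher and 1 lower, beside 8.36% and 7.01% of all tested genes. Hbb-bt, a beta-globin gene among the 19, passed the filter through the knockout libraries alone. The 6 erythroid markers summed to 1194 and 1094 FPKM in Nrf2 KO and to 247 and 490 FPKM in WT, and 5 of 5 tested lay above WT in both knockout libraries. T cell markers summed to 31.4 and 39.3 FPKM in Nrf2 KO and to 15.1 and 13.4 FPKM in WT, with 7 of 7 tested above, and B cell markers to 52.7 and 64.2 FPKM in Nrf2 KO and 39.4 and 38.9 in WT, with 3 of 4 above. Most of the B cell sum was Jchain and Cd79b. Jchain was at 23.2 and 41.8 FPKM in Nrf2 KO and 21.1 and 17.3 in WT. Cd79b overlapped between the genotypes, at 20.3 and 16.3 FPKM in Nrf2 KO and 15.9 and 19.0 in WT. Monocyte markers, from cells that also make calprotectin, summed to 649 and 1233 FPKM in Nrf2 KO and to 693 and 561 FPKM in WT, with 3 of 5 tested above. Most of that sum was Chil3 (values above), and without it the sums were 162 and 203 FPKM in Nrf2 KO and 168 and 125 FPKM in WT. Of the 3, Ccr2 was at 4.63 and 6.75 FPKM in Nrf2 KO and 2.79 and 2.39 in WT, and Plac8 at 15.3 and 18.3 FPKM in Nrf2 KO and 8.21 and 9.36 in WT (limma adjusted p = 0.158 and 0.108). Macrophage markers summed to 289 and 360 FPKM in Nrf2 KO and to 296 and 267 FPKM in WT, with 2 of 9 tested above and 1, Marco, below. Eosinophil markers summed to 27.3 and 20.3 FPKM in Nrf2 KO and 16.0 and 20.5 in WT, with Ear6 at 0 in all libraries. Nearly all of this was Ear1, at 26.7 and 17.7 FPKM in Nrf2 KO and 16.0 and 20.4 in WT, while the granule gene Prg2 was at 0.398 and 1.91 FPKM in Nrf2 KO and at 0 and 0.0562 in WT. Mast cell and basophil markers summed to 7.94 and 10.5 FPKM in Nrf2 KO and 10.1 and 5.17 in WT. The part of blood content, monocytes or other cells in the levels of the 10 genes was not tested.

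Among the other tested genes, 5 had profiles closest to the mean of S100a8 and S100a9, by Euclidean distance of centred log2(FPKM + 1) over the 4 libraries. They were Igkv4-53, an immunoglobulin segment (distance 0.406), Sytl4, a RAB27 effector in secretion (0.423), Igfbp6, which binds insulin-like growth factors (0.453), Igkj1, an immunoglobulin joining segment (0.462), and Hbb-bs, a beta-globin (0.536). Csf3r was at 0.514 on the same measure, and the remaining 7 of the 10 genes lay between 1.00 and 1.98. Igkv4-53 rested on 10 and 14 reads in Nrf2 KO and 0 and 1 in WT, and Igkj1 on 3 and 2 reads in Nrf2 KO and 0 in both WT libraries. Sytl4 was at 3.15 and 2.91 FPKM in Nrf2 KO, against 0.446 and 0.373 FPKM in WT. Igkv4-53, Sytl4 and Igkj1 were under 1 FPKM in both WT libraries and passed the filter through the knockout libraries alone. They could thus be listed only because they were higher there. The measure rests on 4 libraries, and includes the difference between genotypes for which S100a8 and S100a9 were chosen.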

How the data were processed

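RNA sequencing values of 4 lung tumour samples (2 Nrf2 KO, 2 WT) were analysed. The deposited table holds FPKM, by the steps in its values: for 21600 of 21601 genes above 0, all 4 values are whole reads divided by a whole-number length and a library constant, within 0.0002 reads. The length was an annotated one for 5488 genes and otherwise the smallest that fitted, so reads may be undercounted; of 200 genes disturbed at random by up to 1%, 1 fitted any length. The mm10 assembly, TopHat2 and DESeq2 are named without roles, per the submitters' processing notes; which counter, annotation, filters or strand setting applied was not given in the sources used here. Thus reads shared by similar genes or overlapping strands may be split or mixed.

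Of 35275 gene identifiers, 34490 matched a GENCODE M21 symbol (GRCm38). Limma (version 3.58.1, R version 4.3.3) compared the genotypes as log2(FPKM + 1), using an intensity trend and Benjamini-Hochberg adjustment over 13147 genes with at least 1 FPKM in 2 or more libraries; the call was an adjusted p under 0.05. The residual and prior degrees of freedom were 2 and 4.12, and the fit was tested on simulated data. Such fold changes understate changes of low genes. Separate mice are named in the series design, and p-values measure the spread between these samples. Intervals between replicates are exact binomial (95%) on recovered reads, which carry no molecular identifiers. The 10 genes, the gene lists and the motifs were chosen with earlier results of these data known. Genes were named by rule: the 10, Nfe2l2, and from each list called genes, up to 3 with the largest changes without overlap and defining markers near 0, plus the 5 nearest profiles. Tlr4, Cd14, Ager, Slc22a17, Spi1, Hdc, Lrg1, Ltf, Chil3, Fcer1g, Cebpe, S100a7a, Cybb, Itgb2, Mmp25, Hbb-bt, Ear1, Prg2, Jchain, Cd79b, S100a1, S100a6, S100a13 and the receptors compared between knockout libraries were added after their values were seen. Promoters are from RefSeq (GRCm38.p6). Alternatives were quantile normalization, no trend, other filters and pseudocounts, the replicate block, each library left out and limma-voom on recovered reads.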

Additional observations from a re-analysis of the deposited data

How the results depend on the processing

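Calls over all genes were few and moved with the settings. Limma gave 15 genes, 10 higher and 5 lower in Nrf2 KO. The number higher was 6 with quantile normalization (5 lower), without the trend and at a pseudocount of 10; 5 FPKM as filter gave 8 lower; without a filter 0 were higher and 1 lower, 1 in all; limma-voom on recovered reads gave 4 higher, 8 in all. Leaving out 1 library gave 10 to 221 calls, 5 to 171 higher and 5 to 50 lower, with 221 without Nrf2 KO 1 and 49 without Nrf2 KO 2. Replicate numbers did not deviate together (correlation -0.306): the replicate block gave 69 calls, 54 higher and 15 lower, and 4 related genes. A crossed replicate block, chosen after seeing the data, gave 848 calls, 520 higher and 328 lower. Of the 122 related genes 1 was called, and 0 with quantile normalization, without the trend, without a filter, at a pseudocount of 10 and by limma-voom; leaving out 1 library gave 0 to 8. The median log2 fold change of the 10 genes was 1.12, against 1.02 with quantile normalization, 1.43 and 0.54 at pseudocounts of 0.1 and 10, 1.47 by limma-voom and 0.80 to 1.19 without 1 library; the 5 FPKM filter left too few of the genes for a median. Both knockout libraries lay above both WT libraries in 8 of the 10 genes, in 7 with quantile normalization and in 8 to 9 without 1 library. All log2 fold changes of the 10 genes kept their sign in every setting that tested them, except those of Trem1 (-0.07 to 0.13) and Mmp8 (-0.26 to 0.19). Cxcl15 was at -0.225 with quantile normalization; the cause was not tested. Counting error is largest for Clec4d, Mmp9 and Retnlg in WT, with under 40 reads each.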
